A study of Mus musculus with 21 samples.

Results

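The 10 genes described here, Atf4, Atf3, Ddit3, Trib3, Asns, Chac1, Hspa5, Xbp1, Herpud1 and Dnajb9, act in the cell's answer to unfolded protein and to amino acid shortage. They were chosen by symbol from the 55341 genes of a count table of 5 RNA libraries, and all 10 were found there. All 10 also passed the filter on low counts, which left 15240 genes for testing. Earlier results of these data were known when the 10 symbols were chosen.

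The unfolded protein response starts at the endoplasmic reticulum (ER), where sensor proteins are held inactive by the chaperone encoded by Hspa5 until misfolded protein draws it away. The sensor IRE1 (gene Ern1) then splices Xbp1 mRNA, the sensor ATF6 is cleaved into a transcription factor, and the kinase PERK (gene Eif2ak3) phosphorylates the translation factor eIF2. Amino acid shortage reaches the same eIF2 step through the kinase GCN2, and phosphorylated eIF2 favours translation of Atf4 mRNA, so that much of the control of ATF4 lies at translation and is not read by RNA counts. In muscle, fibro-adipogenic progenitors (FAPs) are mesenchymal cells that secrete matrix and factors during repair, and secretory cells depend on ER folding.

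The libraries came from FAPs of adult mice of 2 genotypes. Prdm16Flox/Flox::Pdgfr<alpha>Cre-ERT/+ mice (called Prdm16) carry a tamoxifen-inducible Cre recombinase at the Pdgfra locus, so that the floxed gene for the chromatin regulator PRDM16 can be cut in Pdgfra-expressing cells, which include FAPs. Prdm16Flox/Flox::Pdgfr<alpha>+/+ mice (called WT) carry the same floxed alleles without Cre. Tamoxifen was given for 5 days, cardiotoxin was injected into muscle 7 days later, and FAPs were sorted 5 days after that injury and then grown in culture for 4 to 5 days. The RNA comprised 3 libraries labelled WT (WT 1, WT 2, WT 3) and 2 labelled Prdm16 (Prdm16 1, Prdm16 2). Whether the replicates are separate animals is not stated in the labels, and the p-values therefore rest on a spread between samples that may be technical. Lists of genomic domains covered by the histone mark H3K9me2 (3 libraries of each genotype) and by the nuclear lamina protein LaminB1 (1 of each) were also read.

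Library totals ran from 5839587 to 10657791 counts, and the replicate 2 library was the shallowest of each genotype. The targeted gene, Prdm16, had 171, 94 and 59 counts in WT 1, WT 2 and WT 3 and 91 and 86 in Prdm16 1 and Prdm16 2, a difference that was not called (log2 fold change 0.13, SE 0.47, adjusted p = 0.9996 by edgeR's quasi-likelihood test). Which exons Cre removes is not stated in the labels, so counts over the whole gene do not check the deletion. WT 3 and Prdm16 2 stood apart from the other libraries in interferon genes: Ifit3 had 5095, 5354 and 4763 counts in WT 1, WT 2 and Prdm16 1 against 224 in WT 3 and 125 in Prdm16 2. Xist had 15 counts in Prdm16 2 and at least 3483 in each of the other 4. The p-values in the authors' deposited table were matched within 1% for 14607 of 14607 genes (mean count of at least 10) only when WT 3 was placed with Prdm16 and Prdm16 1 with WT, against 169 genes (1.16%) with the labels as given. Results below follow the labels, and values with these 2 libraries exchanged are given after them. Of 7 FAP markers, Pdgfra, Ly6a, Cd34, Dcn and Col1a1 had 1387 to 17473 counts in every library, Pi16 had 30 (WT 3) to 400 (WT 1) and Dpp4 had 0 to 14. Of 6 macrophage markers, Adgre1 and C1qa were at 0 in all 5 libraries, and Cd68 (17 to 35 counts), Csf1r (2 to 24), Lyz2 (4 to 11) and Ptprc (1 to 3) were low. Of 7 myoblast markers, Pax7 had 11 counts in WT 3 and 0 or 1 in each other library. Myf5 had 14 counts in WT 3 and 2 or 3 elsewhere, and neither gene passed the filter on low counts. The 5 that passed were Myod1 (53 to 315 counts), Cdh15 (37 to 221), Itga7 (110 to 360), Megf10 (152 to 543) and Des (223 to 1107). These 5 summed to 80.2, 83.4 and 238 CPM (counts scaled to library size by edgeR) in WT 1, WT 2 and WT 3. Their sums were 167 and 212 CPM in Prdm16 1 and Prdm16 2. Of 5 pericyte and smooth muscle markers, Rgs5 had 81 to 258 counts and Notch3 had 60 to 171. Abcc9 (9 to 39 counts), Myh11 (0 to 6) and Kcnj8 (0 to 3) were low. The 5 endothelial markers had at most 47 counts (Cdh5) and the 4 Schwann markers at most 40 (S100b).

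Short stretches around known response elements are shown because these elements are how ATF4, ATF6 and XBP1 are known to reach the stress genes. All 10 genes were matched to RefSeq promoters of GRCm38.p6, each running from 250 bases before to 50 after the annotated start, 300 bases in all, and 32851 promoters were searched on both strands. Capitals mark the match, with 10 bases kept on either side, written 5′ to 3′ on the gene's strand.
Atf3, chr1:191183426-191183453, minus strand: cttctcgcacTTGCATCAccaagtccgc
Trib3, chr2:152344029-152344056, minus strand: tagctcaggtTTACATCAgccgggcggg
Asns, chr6:7693215-7693242, minus strand: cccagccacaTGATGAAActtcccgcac
Chac1, chr2:119351039-119351066, plus strand: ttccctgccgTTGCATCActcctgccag
Hspa5, chr2:34772015-34772053, plus strand: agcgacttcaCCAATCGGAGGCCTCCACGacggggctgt
Herpud1, chr8:94386307-94386397, plus strand: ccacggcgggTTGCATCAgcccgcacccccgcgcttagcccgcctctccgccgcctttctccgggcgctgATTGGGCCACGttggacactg

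The amino acid response element, searched as TGATGNAA, is the composite site of ATF4 and C/EBP proteins. It was found in 5 of the 10 promoters (Atf3, Trib3, Asns, Chac1 and Herpud1) and in 3.97% of all promoters. Asns alone held it on the gene's own strand, as 2.12% of all promoters did. With the annotated first base counted as 0, the matches began at -110 in Atf3, -193 in Chac1, -112 in Herpud1, -23 in Asns and 14 in Trib3, so that the Trib3 match lies within the transcript. The ER stress element bound by ATF6 with NF-Y, searched as CCAAT and CCACG with 9 bases between them, was found in Hspa5 from -65 to -47 and in 0.119% of all promoters. The related element II, ATTGG and CCACG with 1 base between them, was found in Herpud1 from -52 to -42 and in 0.0365% of all promoters. TGACGTCA (cAMP response element, 1.79% of promoters) and TGACGTGG (a site known for XBP1 and ATF6, 0.676%) were found in none of the 10. No 2 matches in the 10 promoters overlapped. A match is a run of letters and not a measured site, and absence of a match says only that these letters are not in the window.

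No difference between genotypes was called for the 10 stress genes. This does not set them apart, since no tested gene was called. Nor does it show equal levels, as several of the intervals given below are wide. With edgeR's quasi-likelihood test and Benjamini-Hochberg adjustment over all genes, 0 of 10 were called at a threshold of 0.05, where 0% of the 15240 tested genes were called. At an unadjusted p under 0.05 edgeR held 0 of the 10 and 2.48% of all genes. DESeq2 and limma-voom also called 0 of the 10, with 1 (Xbp1) and 0 at an unadjusted p under 0.05. Fitted log2 fold changes (Prdm16 over WT) were positive for 9 of the 10, with Xbp1 the exception, and their median was 0.19 against 0.00053 over all genes, of which 50.1% were positive. That direction rested on 1 library: without Prdm16 2, 3 of the 10 were positive and the median was -0.11. In none of the 10 did both Prdm16 libraries lie above all 3 WT libraries, as they did in 8.83% of genes, or below them, as in 8.96%. In these bulk samples, fewer cells expressing a gene and less RNA per cell cannot be told apart. Levels below are CPM within 1 gene, and genes were not compared with each other in level because transcript lengths were not used here.

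**Figure D1:**
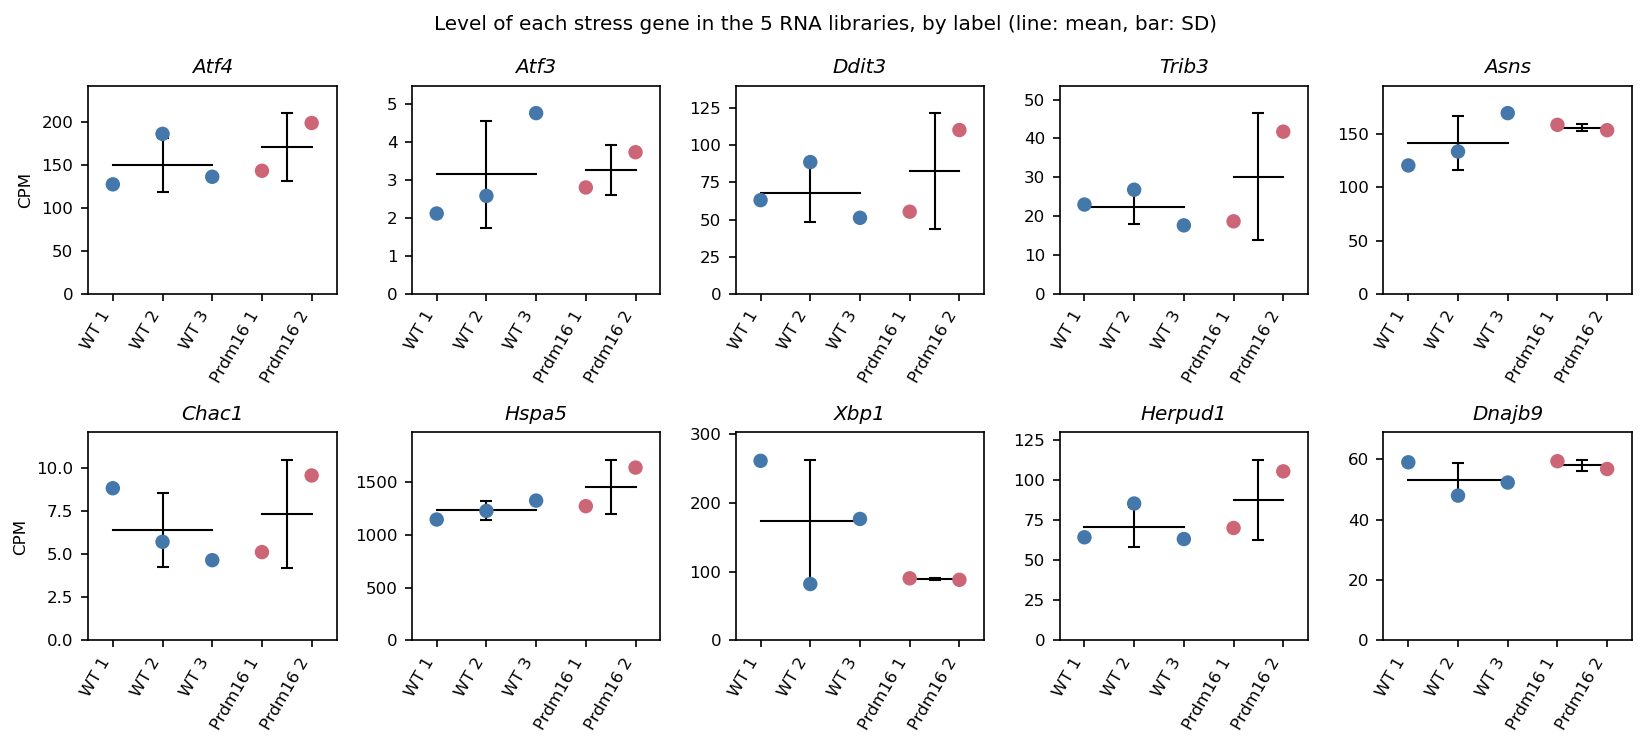
CPM of each of the 10 stress genes (vertical axes, linear, each panel from 0) in the 5 RNA libraries, with WT and Prdm16 libraries as points, the genotype mean as a line and 1 SD on either side as a bar. The genotypes overlap in every panel, and Xbp1 shows WT 1 and WT 3 above the other 3 libraries.

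Atf4 encodes the transcription factor at the centre of the response to phosphorylated eIF2. Its level was 128, 187 and 137 CPM in WT 1, WT 2 and WT 3 and 144 and 199 CPM in Prdm16 1 and Prdm16 2. The replicate 2 library was the highest of each genotype, and the other 3 libraries lay close together. The means were 150 ± 31.7 CPM in WT (SD, n = 3) and 171 ± 39.4 CPM in Prdm16 (SD, n = 2), and the fitted log2 fold change was 0.19 (SE 0.24, 95% interval -0.36 to 0.74, adjusted p = 0.9996 by edgeR).

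Atf3 encodes a stress-induced factor of the same basic leucine zipper class and is itself a target of ATF4. It was thinly counted, with 22, 18 and 51 counts in WT 1, WT 2 and WT 3 and 24 and 21 in Prdm16 1 and Prdm16 2, or 2.12, 2.58 and 4.76 CPM against 2.80 and 3.73 CPM. WT 3 was highest, and the exact Poisson 95% interval of its count, 38.0 to 67.1, lay above that of WT 1, 13.8 to 33.3. Such intervals cover counting error only. The fitted log2 fold change was 0.04 with an interval of -1.18 to 1.25 (edgeR), the widest of the 10.

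Ddit3 encodes CHOP, a factor downstream of ATF4 that is linked to cell death under lasting ER stress. It was at 63.1, 88.7 and 51.2 CPM in the 3 WT libraries in order and at 55.3 and 110 CPM in the 2 Prdm16 libraries. Prdm16 2 and WT 2 were again the highest, and Prdm16 1 lay inside the WT range. The log2 fold change was 0.29 (SE 0.34, 95% interval -0.51 to 1.09, edgeR).

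Trib3, a pseudokinase gene induced by ATF4 and CHOP that feeds back on them, followed the order of Ddit3. It was at 23.0, 26.8 and 17.6 CPM in WT 1, WT 2 and WT 3 and at 18.7 and 41.7 CPM in Prdm16 1 and Prdm16 2. Prdm16 2 was 2.37 times the lowest library, and 18.3% of the 11197 genes whose mean reached 5 CPM had a larger ratio of highest to lowest. The log2 fold change, 0.42, was the highest of the 10 (SE 0.37, 95% interval -0.42 to 1.26, edgeR).

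Asns encodes asparagine synthetase, the textbook target of the amino acid response. It did not follow that order, with 121, 134 and 170 CPM in WT 1, WT 2 and WT 3 and 159 and 154 CPM in Prdm16 1 and Prdm16 2. WT 3 was highest and both Prdm16 libraries fell inside the WT range, for a log2 fold change of 0.14 (SE 0.20, 95% interval -0.33 to 0.61, edgeR). Chac1, an ATF4 target whose product degrades glutathione, had 92, 40 and 50 counts in WT 1, WT 2 and WT 3 and 44 and 54 in Prdm16 1 and Prdm16 2. These gave 8.85, 5.73 and 4.67 CPM against 5.14 and 9.59 CPM, so that WT 1 and Prdm16 2 were the high libraries. Its log2 fold change was 0.19 (SE 0.46, 95% interval -0.87 to 1.24, edgeR).

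Hspa5 encodes BiP, the main Hsp70 chaperone of the ER and the usual marker of ER load. It was at 1143, 1224 and 1322 CPM in WT 1, WT 2 and WT 3 and at 1269 and 1634 CPM in Prdm16 1 and Prdm16 2. Prdm16 2 was highest while Prdm16 1 lay within the WT range, and 71.5% of genes with at least 5 CPM had a larger ratio of highest to lowest library than the 1.43 of Hspa5. The means were 1230 ± 89.7 CPM (SD, n = 3) and 1451 ± 258 CPM (SD, n = 2), which gave a fitted log2 fold change of 0.24 with a 95% interval of -0.21 to 0.68 (edgeR). Without Prdm16 2 it was 0.056.

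Herpud1, an ER membrane protein gene that serves ER-associated degradation, was at 64.4, 85.4 and 63.3 CPM in the WT libraries and at 70.2 and 106 CPM in the Prdm16 libraries. The replicate 2 libraries were the highest, as in Atf4, Ddit3 and Trib3, and the log2 fold change was 0.31 (SE 0.25, 95% interval -0.27 to 0.88, edgeR). Dnajb9 encodes ERdj4, a BiP partner and a known target of spliced XBP1. It was the most even of the 10, at 59.1, 48.0 and 52.3 CPM in WT and 59.4 and 56.8 CPM in Prdm16. Its highest library was 1.24 times its lowest, and 92.6% of genes with at least 5 CPM had a larger ratio. The log2 fold change was 0.13 (SE 0.20, 95% interval -0.34 to 0.60, edgeR).

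Xbp1, the transcription factor gene whose mRNA IRE1 splices, had the widest range of the 10. Its level was 262, 82.1 and 177 CPM in WT 1, WT 2 and WT 3 and 90.5 and 88.3 CPM in Prdm16 1 and Prdm16 2. WT 1 and WT 3 were high and the other 3 libraries were close together, with WT 2 the lowest of all, so the genotypes overlapped. The ratio of highest to lowest was 3.18, and 9.37% of genes with at least 5 CPM had a larger one. The means were 174 ± 89.8 CPM in WT (SD, n = 3) and 89.4 ± 1.55 CPM in Prdm16 (SD, n = 2), and the log2 fold change was -0.96 (SE 0.45, 95% interval -2.05 to 0.13, adjusted p = 0.9996 by edgeR). It was -0.55 without WT 1 and -1.29 without WT 2. The unadjusted p of Xbp1 by edgeR was 0.076 with all libraries, 0.18 without WT 1 and 0.0013 without WT 2. With no filter on low counts it was 6.6e-05, where 1103 of 32193 genes fell under 0.05. WT 1 was at least 2 times every other library in 155 of 11197 genes, against 0 to 40 genes for each other library. The part of this in Xbp1 was not tested. Counts per gene do not separate spliced from unspliced Xbp1 mRNA, so the activity of IRE1 was not read. Dnajb9, its known target, was at 48.0 CPM in the library lowest in Xbp1 and at 59.1 CPM in the highest, but Prdm16 1 had 59.4 CPM with little more than the lowest Xbp1.

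**Figure D2:**
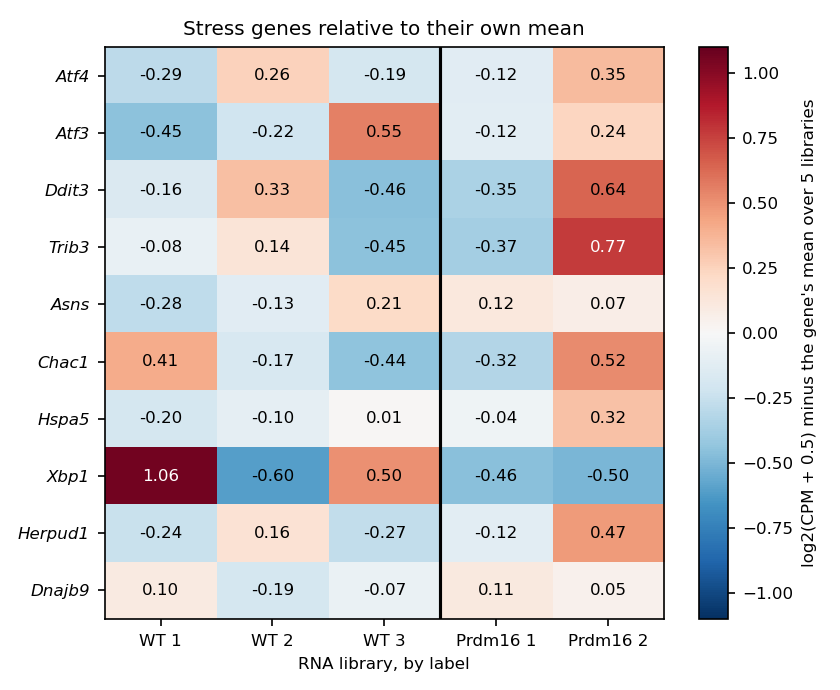
Log2(CPM + 0.5) of each stress gene (rows) in each RNA library (columns), centred on the gene's mean over the 5 libraries and coloured from lower to higher. Atf4, Ddit3, Trib3 and Herpud1 are highest in the 2 replicate 2 libraries, and Xbp1 is highest in WT 1 and WT 3.

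Both replicate 2 libraries were above the other 3 in 4 of the 10 genes (Atf4, Ddit3, Trib3 and Herpud1), against 10.5% of all tested genes. These 4 were singled out after their values were seen, so the count is a description. WT 2 and Prdm16 2 were also the shallowest libraries, and the labels do not say that a replicate number marks a shared day or batch. The part of depth or of the replicate number in this order was not tested. Prdm16 2 was the highest library in 6 of the 10 genes (Atf4, Ddit3, Trib3, Chac1, Hspa5 and Herpud1). This library also had few Xist counts and a high sum over 24 glycolysis and hypoxia genes, 12040 CPM against 4970 to 10070 CPM in the other 4. The part of these differences in the stress genes was not tested.

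Exchanging WT 3 and Prdm16 1 changed the fitted values of Xbp1 and Atf3 most and called none of the 10, where edgeR called 1.19% of all genes. Xbp1 moved to -0.12 (95% interval -1.41 to 1.16) and Atf3 to 0.77 (95% interval -0.20 to 1.75, adjusted p = 0.627, the lowest of the 10 under this grouping). The 8 remaining genes lay between -0.03 (Dnajb9) and 0.37 (Trib3). With the exchange 8 of the 10 were positive, with a median of 0.21. Over all genes the median was -0.0061 and 49.4% were positive. In the authors' deposited table an adjusted p was given for 7 of the 10 and none was called. There 7.55% of genes with an adjusted p were called. These calls rest on cutoffs set by the authors, which differ from the threshold used here. The lowest of these adjusted p-values in the authors' deposited table was 0.672, for Hspa5, with a log2 fold change of 0.16. In the authors' deposited table the log2 fold changes of the 10 ran from -0.02 (Dnajb9) to that of Hspa5. They were smaller in size than the edgeR values with the exchange (Atf3 0.14 against 0.77), so their sizes are not compared.

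**Figure D3:**
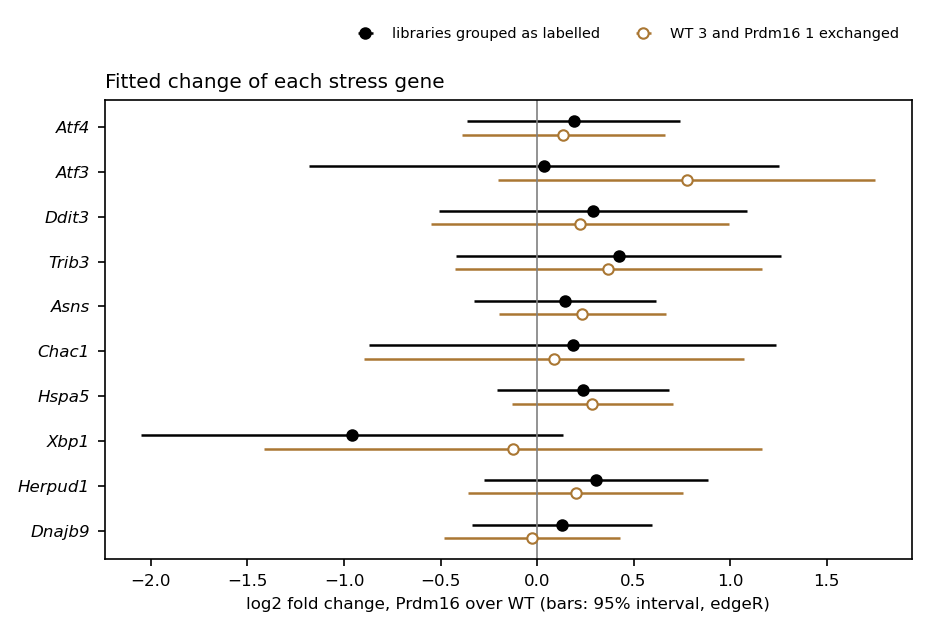
Fitted log2 fold change (horizontal axis) of each stress gene, Prdm16 over WT, with 95% intervals from edgeR, for libraries grouped as labelled (filled) and with WT 3 and Prdm16 1 exchanged (open). All intervals include 0, and Xbp1 shifts from -0.96 to -0.12.

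The wider pathway was read through 6 lists, none of whose genes was called by edgeR, DESeq2 or limma-voom under the labels. At an unadjusted p under 0.05 edgeR held 2.48% of all genes. It held 1 of 28 amino acid response, 1 of 24 ER-associated degradation and 1 of 16 heat shock genes. None was held of 20 tRNA synthetase, 21 sensor and 21 ER chaperone genes, and no list was tested as a set. Of 28 tested amino acid response and ATF4 target genes, 17 had positive and 11 negative log2 fold changes, with a median of 0.13 against 0.00053 for all genes. Atf5, an ATF4-related transcription factor gene, was at 73.5, 27.8 and 36.8 CPM in WT and 18.1 and 24.7 CPM in Prdm16. It was the 1 gene of that list with an unadjusted p under 0.05 by edgeR (log2 fold change -1.11), and both Prdm16 libraries lay below all WT libraries. Its value was -0.61 without WT 1, no longer at an unadjusted p under 0.05, and -0.37 with WT 3 and Prdm16 1 exchanged. Values of 0.98 for Cth (cystathionine gamma-lyase), 0.71 for Slc6a9 (a glycine transporter) and 0.68 for Aldh1l2 (a mitochondrial folate enzyme) went the other way. Without Prdm16 2 Cth was at 0.40 and Aldh1l2 at 0.11, and the exchange put Cth at 0.54, Slc6a9 at 0.15 and Aldh1l2 at 0.45. Cebpb, Fgf21 and Cbs did not pass the filter on low counts.

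The 20 cytosolic aminoacyl-tRNA synthetase genes, many of them ATF4 targets, split into 12 positive and 8 negative with a median of 0.03. They ranged narrowly: the 4 of smallest p, Cars, Tars, Mars and Aars, which charge cysteine, threonine, methionine and alanine tRNAs, had log2 fold changes of 0.36, -0.21, 0.24 and -0.25. With the exchange these were 0.25, 0.15, 0.38 and 0.036, so that Tars and Aars turned. Of 21 genes for sensors, eIF2 kinases and eIF2 control, 8 were positive and 13 negative with a median of -0.02. Ern1, the Xbp1 splicing sensor, was at 30.5, 25.9 and 26.5 CPM in WT and 33.6 and 44.2 CPM in Prdm16 (log2 fold change 0.49). Eif2ak3 (PERK, 0.46), Ppp1r15b (a subunit of the eIF2 phosphatase, 0.32) and Mbtps1 (a protease that cleaves ATF6, 0.25) also had both Prdm16 libraries above all WT libraries, which makes 4 of 21 beside 8.83% of all genes. Another 2 of the 21 had both below all WT libraries, beside 8.96%. Elsewhere both Prdm16 libraries lay above all WT libraries in 3 of 28 amino acid response and 1 of 20 tRNA synthetase genes. They did so in 3 of 21 ER chaperone, 3 of 24 degradation and 0 of 16 heat shock genes. Both lay below in 2, 0, 1, 2 and 2 genes of these lists, in that order. The 4 sensor genes were also the 4 of smallest p in their list, and the counts are a description. Each of the 4 fell short of an unadjusted p under 0.05 by edgeR, and with the exchange they were at 0.23 (Ern1), 0.17 (Eif2ak3), 0.13 (Ppp1r15b) and -0.11 (Mbtps1).

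The 21 ER chaperone and folding enzyme genes had 14 positive and 7 negative log2 fold changes, and a median of 0.10. Sdf2l1, an ER cochaperone gene, was, like Xbp1, highest in WT 1 and next in WT 3, with 96.1, 27.5 and 59.2 CPM in WT 1, WT 2 and WT 3 and 27.5 and 33.4 CPM in Prdm16 1 and Prdm16 2 (log2 fold change -1.004, or -0.53 without WT 1). Fkbp14 (0.43) and Fkbp2 (-0.39), both ER prolyl isomerase genes, and Pdia4 (0.33), a disulfide isomerase gene, were the others of smallest p. With the exchange Sdf2l1 was at -0.12, Fkbp14 at -0.041, Fkbp2 at -0.13 and Pdia4 at 0.21. Of 24 tested genes for ER-associated degradation and translocation, 11 were positive and 13 negative, the median was -0.01, and Derl3 did not pass the filter. Sec61g, a subunit of the ER translocon, was the 1 gene there with an unadjusted p under 0.05 (log2 fold change -0.49). Sec61b of the same channel was at -0.29, while Sel1l (a subunit of the degradation ligase) was at 0.31 and Ube2g2 (its conjugating enzyme) at 0.35. With the exchange these were at -0.16 (Sec61g), -0.27 (Sec61b), 0.030 (Sel1l) and 0.36 (Ube2g2), and without Prdm16 2 Ube2g2 was at 0.14 and Sec61b at -0.16. The 16 heat shock genes outside the ER, which serve folding in the cytosol and, for Hspd1 and Hspe1, in mitochondria, had 7 positive and 9 negative values and a median of -0.08. Hspb1 was the 1 with an unadjusted p under 0.05 (-0.60), beside Hspa4 (-0.69), Hspe1 (-0.34) and Dnajb1 (-0.20). With the exchange Hspb1 (0.20), Hspa4 (0.43) and Dnajb1 (0.17) turned and Hspe1 was at -0.14.

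**Figure D4:**
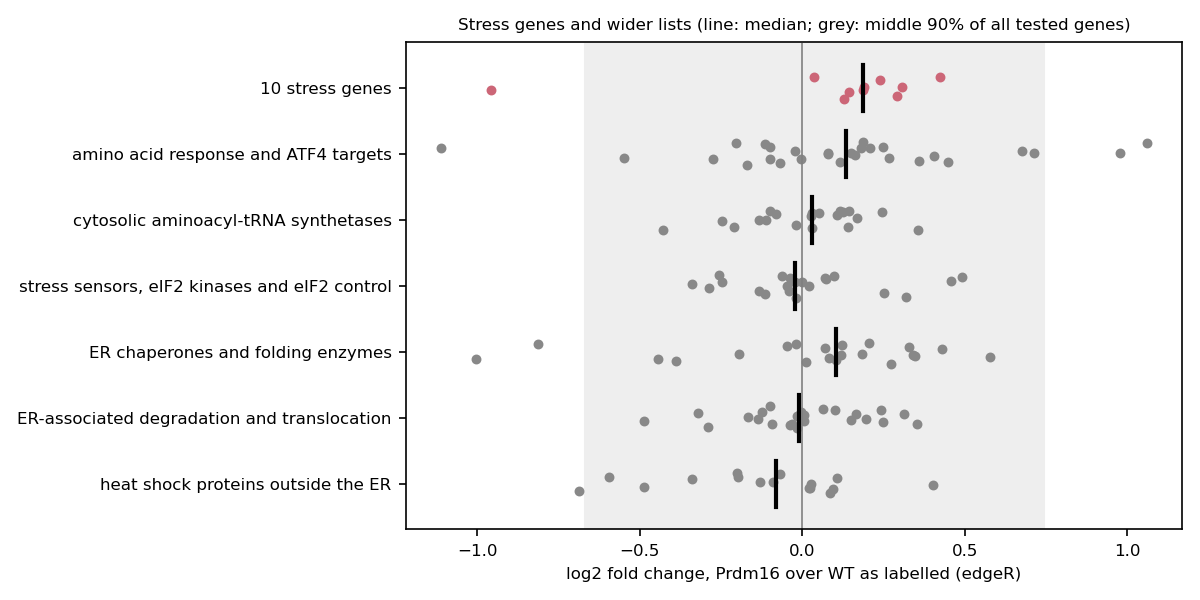
Fitted log2 fold change as labelled (horizontal axis) of each of the 10 stress genes and of each tested gene of the 6 wider lists, 1 point per gene, with the median as a black line and the middle 90% of all tested genes shaded. Medians lie between -0.08 and 0.19, and nearly all points stay inside the shaded range.

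With WT 3 and Prdm16 1 exchanged, edgeR called 1 gene of the 6 lists and 1.19% of all tested genes. The gene was 1 of the 21 for sensors, eIF2 kinases and eIF2 control. The other lists had 28, 20, 21, 24 and 16 tested genes, with 0 called in each. Eif2ak2 encodes PKR, an eIF2 kinase that senses double-stranded RNA and is itself induced by interferon. It was at 165, 217 and 54.9 CPM in WT 1, WT 2 and WT 3 and at 190 and 54.2 CPM in Prdm16 1 and Prdm16 2, so the 2 libraries low in Ifit3 were low. Its log2 fold change was -1.81 with the exchange (adjusted p = 0.0012 by edgeR) and -0.25 under the labels. All 24 of 24 interferon genes were also called lower under that grouping, with a median of -3.95, and the part of the interferon difference in Eif2ak2 was not tested. Ero1l, the ER oxidase gene that is also induced by hypoxia, was at 43.3, 19.8 and 65.0 CPM in WT and 16.6 and 112 CPM in Prdm16 and had a value of 1.72 with the exchange (adjusted p = 0.196 by edgeR). It was high in the same libraries as the glycolysis and hypoxia genes, whose sums were 5804, 8671 and 10070 CPM in WT 1, WT 2 and WT 3 and 4970 and 12040 CPM in Prdm16 1 and Prdm16 2, except that WT 2 was low in Ero1l. The part of hypoxia genes in it was not tested.

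None of the other genes of smallest p under the exchange was called. By edgeR, 1500 of the 15240 tested genes had an unadjusted p under 0.05 with the exchange. Of the genes named here, Stc2, Phgdh, Slc7a1, Pck2 and Hsp90aa1 did. Among amino acid response genes Stc2 (a secreted stanniocalcin) was at 1.11, Slc7a1 (a cationic amino acid transporter) at 0.58, Phgdh (the first enzyme of serine synthesis) at 0.56 and Pck2 (mitochondrial PEP carboxykinase) at -0.61. Over all tested genes 49.4% were positive with the exchange and the median was -0.0061. Positive values were held by 20 of 28 amino acid response, 18 of 20 tRNA synthetase and 14 of 21 sensor and eIF2 genes. They were held by 14 of 21 ER chaperone, 13 of 24 degradation and 12 of 16 heat shock genes, and no list was tested as a set. The median of the amino acid response list was 0.16. That of the tRNA synthetases was 0.18, with Mars at 0.38, Farsa at 0.29, Gars at 0.25 and Nars at 0.24. Among sensors and eIF2 genes Atf6 and Eif2b3 were each at 0.43, against -0.05 and -0.06 as labelled, and Eif2s1, the eIF2 subunit that is phosphorylated, at 0.35. ER chaperone genes had a median of 0.12, with Hsp90b1 at 0.25 and Dnajc3 and Dnajc10 at 0.23 each. Degradation genes had a median of 0.02, with Os9 at -0.40, Edem1 at 0.39 and Ube2j1 at 0.35 (-0.02 as labelled). Heat shock genes had a median of 0.19, with Hsp90aa1 at 0.42, Hsph1 at 0.37, Hsf1 at 0.25 and Bag3 at -0.29.

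Genes nearest over the 5 libraries to mean profiles of stress genes were picked by the root mean square difference in centred log2 CPM. For the mean profile of Trib3, Asns, Chac1 and Ddit3, which was highest in Prdm16 2 (0.50) and lowest in WT 3 (-0.29), the nearest were Stat5b (0.039), Zfp764 (0.041), Stk36 (0.041), Galnt13 (0.060) and Glis2 (0.061). For the mean profile of Hspa5, Herpud1, Dnajb9 and Xbp1, highest in WT 1 (0.18) and lowest in WT 2 (-0.18), they were Esyt1 (0.011), Cdc42se1 (0.015), Hist1h2bc (0.015), Cotl1 (0.016) and Trp53bp2 (0.023). None of these 10 is a gene of the stress lists. The mean profiles do not stand for each member. In the second, Xbp1 ran from 1.06 in WT 1 to -0.60 in WT 2. Hspa5 and Herpud1 were below their own mean in WT 1 (-0.20 and -0.24), and Herpud1 was above it in WT 2 (0.16). In the first, Asns was above its own mean in WT 3 (0.21). With 5 libraries and 10441 genes compared, close profiles are a description.

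Like most of the tested genes located in RefSeq, all 10 stress genes lay outside the deposited chromatin domains. No gene body touched an H3K9me2 domain in any of 6 libraries, beside 8.84% of 13574 tested genes located in RefSeq that touched at least 1. None touched a LaminB1 domain in either of 2 libraries, beside 2.3% of those genes. This held with 5 kb on either side of the start site and with 10 kb on either side of the gene body. Dnajb9 (chr12:44205897-44210068 in GRCm38.p6) came nearest to both kinds of domain: 51.9 kb from an H3K9me2 domain in WT 1 and Prdm16 2 and up to 991 kb in the other libraries, and 45.9 kb from a LaminB1 domain in WT and 174 kb in Prdm16. Asns followed at 121 to 244 kb from H3K9me2 domains and at 267 kb (WT) and 1155 kb (Prdm16) from LaminB1 domains. This order is by the smallest distance over the libraries of each kind and did not hold in every library. In H3K9me2 Prdm16 3, Asns (121 kb) was nearer than Dnajb9 (394 kb). In LaminB1 Prdm16, Atf3 (438 kb), Ddit3 (511 kb), Trib3 (845 kb) and Herpud1 (850 kb) were nearer than Asns. Atf3 lay 406 to 415 kb from H3K9me2 domains in all 6 libraries, while the distance of Hspa5 ran from 608 to 7931 kb. Chac1 (2618 to 2816 kb) and Atf4 (2096 to 2167 kb) were far from these domains in every library. Domains covered 575 to 1017 Mb for H3K9me2, and 693 Mb (WT) and 331 Mb (Prdm16) for LaminB1. Distances move with how much was called, and with 3 libraries against 3 an exact test cannot go below 0.1, so none was made.

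**Figure D5:**
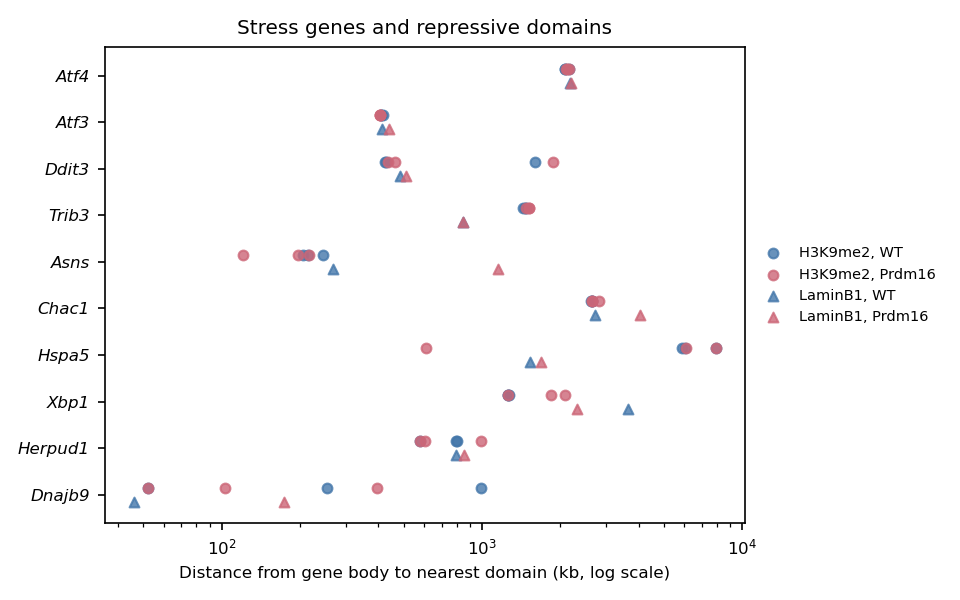
Distance from each stress gene to the nearest domain (kb, log axis) in each of the 6 H3K9me2 and 2 LaminB1 libraries, by genotype. No point is at 0, and Dnajb9 and Asns have the smallest distances over the libraries of each kind.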

How the data were processed

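The 10 genes, the wider lists and the tests were chosen with earlier results of these data known. Per the submitters' processing notes, STAR 2.7, featureCounts, DESeq2 1.20 and Bowtie 1.2.2 were used, with roles not given. The authors deposited raw counts per gene for 5 RNA libraries, a normalized signal per gene (the deposited counts over 1 size factor per library), and a comparison with log2 fold changes and p-values by the authors. The deposited domain lists (mm10, 1 per sample) hold a score by the authors that was not used here, with the caller not given. The 8 input samples were not used here.

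The count model was edgeR 4.0.16 under R 4.3.3 (filterByExpr, TMM scaling, robust quasi-likelihood test, two-sided, Benjamini-Hochberg over 15240 genes, threshold 0.05), after a check on simulated counts. That check used only large changes in well-counted genes with a fixed spread. It therefore does not show that changes of the size fitted here would be found. Alternatives were other scalings and filters, DESeq2 1.42.0, limma-voom (3.58.1), the replicate number as a block, each library left out, and WT 3 and Prdm16 1 left out or exchanged. Totals per library were 10657791, 7053114 and 10284864 (WT) and 8448654 and 5839587 (Prdm16). Up to 4 genes per list were named by smallest unadjusted p under each grouping, and 5 per profile by likeness. Of the tested genes, 13574 (89.1%) were located by symbol in RefSeq GRCm38.p6. Gene body and domain overlaps were counted from any shared base.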

Additional observations from a re-analysis of the deposited data

How the results depend on the processing

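None of the 10 stress genes was called under any of 14 alternatives. The lowest adjusted p was 0.079, for Xbp1 with no filter on low counts. Over all genes, 0 were called as labelled, 1 with upper-quartile scaling, 25 with no filter, 1 with DESeq2, 0 to 4 with 1 library left out (4 without Prdm16 1), 93 without WT 3 and Prdm16 1, and 182 with these 2 exchanged, which also called 1 sensor gene (Eif2ak2, -1.81). With the replicate block 1 gene was called over all genes and none of the 10. The replicate numbers are not shown to pair libraries. Deviations from the group means correlated at 0.21 across genes for WT 1 with Prdm16 1 and at -0.21 for WT 2 with Prdm16 2. WT 3 was at 0.37 with Prdm16 2 and at -0.37 with Prdm16 1. With 2 Prdm16 libraries the values for Prdm16 1 and Prdm16 2 are equal and opposite by construction, so they cannot decide a pairing. The block turned Chac1 to -0.036. Asns, Hspa5 and Xbp1 kept their sign throughout.

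With each library left out in turn, log2 fold changes ran from -0.055 to 0.38 for Atf4, -0.21 to 0.48 for Atf3, -0.28 to 0.68 for Ddit3, -0.25 to 0.87 for Trib3, -0.31 to 0.55 for Chac1, -0.0059 to 0.54 for Herpud1, 0.056 to 0.38 for Hspa5, -1.45 to 0.40 for Eif2ak2, -1.37 to -0.61 for Atf5, 0.40 to 1.38 for Cth, 0.11 to 1.07 for Aldh1l2 and -1.36 to 1.36 for Ero1l. The exchange turned Dnajb9 to -0.026, Mbtps1 to -0.11, Fkbp14 to -0.041, Tars to 0.15, Aars to 0.036, Hspb1 to 0.20, Hspa4 to 0.43, Dnajb1 to 0.17, Atf6 and Eif2b3 to 0.43 and Ube2j1 to 0.35. Limma-voom put Ero1l at -0.0015. On the gene's own strand alone, 1 of the 10 promoters held the amino acid response element. The causes were not tested. Atf3 and Chac1, at 18 to 92 counts per library, were the least precisely counted of the 10.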
